A study of Danio rerio with 9 samples.

Results

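The genes described here encode the zebrafish Notch receptors notch1a, notch1b, notch2 and notch3 and the ligands dla, dlb, dlc, dld, jag1a and jag1b. They were taken by symbol from the deposited tables, where all 10 of 10 listed genes were found among 22337 genes, and all 10 were among the 21293 genes that passed the filter on low counts. RNA was sequenced from 9 whole embryos, one library each, about 25 hours after fertilization at 29 °C. All came from crosses among carriers of zic2aGBT133 and zic2bUW1127, each parent heterozygous at both genes, whose products are zinc-finger regulators of transcription that act in the early brain. The groups were 4 embryos with normal eyes (labelled 3, 4, 6 and 7) and 5 coloboma embryos (labelled 3, 4, 5, 6 and 7), whose eyes have a gap where the choroid fissure of the eye fails to close. No treatment was given. The labels gave the cross and the eye phenotype. The sample descriptions of the normal embryos also carry the tag WT, which the labels do not explain, and the genotype of single embryos was not analysed here.

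Notch signalling passes between touching cells. A Delta or Jagged ligand on one cell binds a Notch receptor on its neighbour, proteases release the receptor's intracellular part, and this part joins the DNA-binding factor Rbpj to switch on her and hey genes. In the neural tube and retina, newly forming neurons display Delta and keep adjacent progenitors from becoming neurons, a process called lateral inhibition. The same pathway times somite formation and patterns vessels, the inner ear and the pharyngeal arches, so whole-embryo RNA adds up many sources. In such bulk RNA, fewer cells of a type and less RNA per cell cannot be told apart.

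Library totals ran from 20461180 counts in coloboma embryo 5 to 59233104 in coloboma embryo 6, and each of the 10 genes had between 428 and 40456 counts in every embryo. The targeted genes gave no check of the labels: zic2a lay between 44.2 and 54.9 CPM (counts scaled to library size, with TMM factors) in normal and between 46.2 and 62.6 in coloboma embryos, and zic2b between 45.3 and 54.7 and between 46.3 and 49.2. Coloboma embryo 3 stood apart in the lens, where 13 lens genes summed to 53.3 CPM against 1286 to 1928 CPM in the other 4 coloboma embryos and 748 to 1372 CPM in normal embryos. All 10 Notch genes were placed in the RefSeq gene table of assembly GRCz12tu, and 0 of the 10 lay on the chromosome of zic2a. The genes dla and jag1a lay on chromosome 1, where zic2b was also placed. Linkage of these genes to zic2b was not tested.

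The 4 Delta genes were lower in coloboma embryos, by 1.23 to 1.36 times on average. The CPM ranges of the groups were apart for dla and dlb, and overlapped for dlc, dld and the 4 receptor genes. Ranges apart with coloboma lower were found for 2.16% of all genes tested. Of the 4 receptors, 3 also had negative log2 fold changes. None of the 10 genes passed an adjusted p of 0.05 over all genes (edgeR quasi-likelihood test, Benjamini-Hochberg), where 0.207% of all genes passed. At an unadjusted p under 0.05, 5 of the 10 did, all lower (dla, dlb, dlc, dld and jag1a), against 4.90% of all genes that were lower at this level. DESeq2 called 2 of the 10, dla and dlb, both lower, where it called 2.75% of all genes in either direction and 1.0% (211 of 21026) as lower, and limma voom called 0. The median log2 fold change (coloboma minus normal) was -0.41 over the 4 Delta genes, -0.08 over the 4 receptors, -0.10 over the 2 Jagged genes and 0.00 over all genes tested. A difference between the Delta genes and the receptors was not tested.

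**Figure D1:**
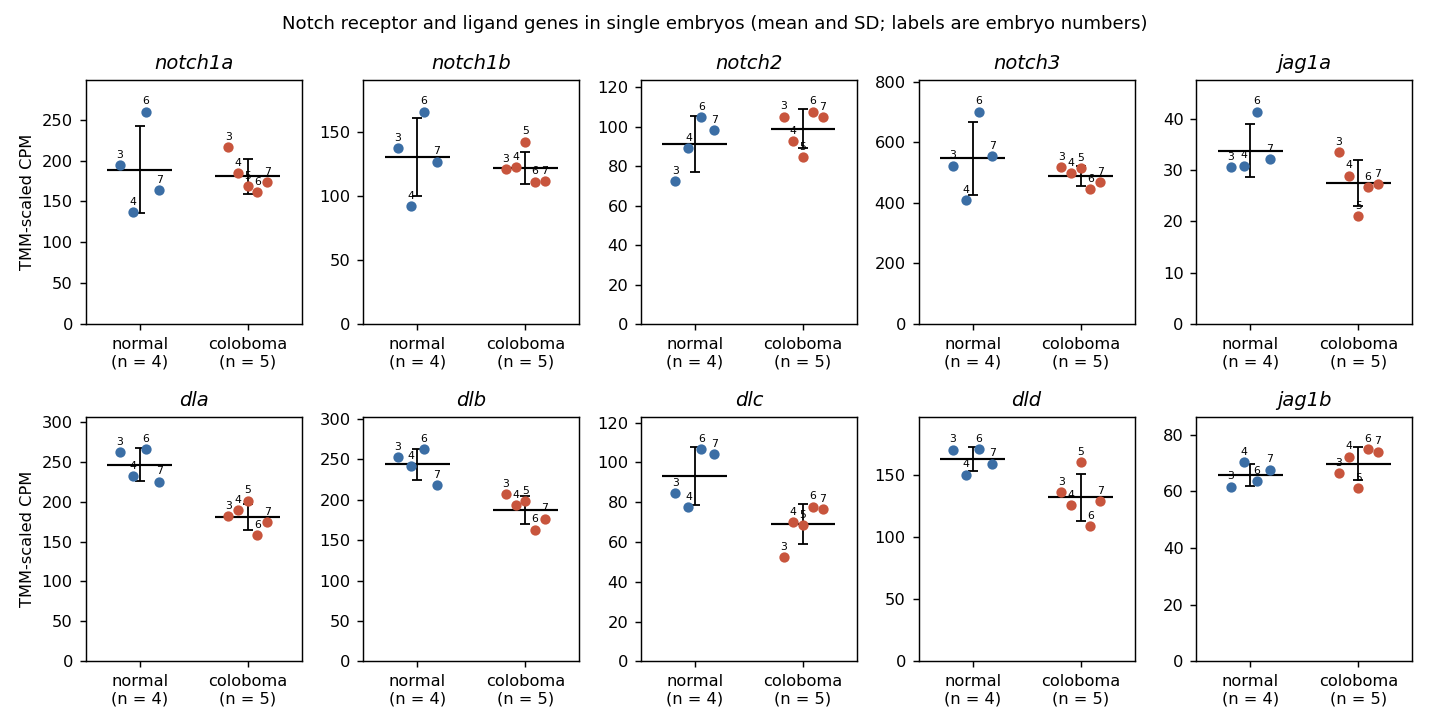
TMM-scaled CPM of each gene (vertical axis from 0, own scale per panel) in 4 normal (blue) and 5 coloboma (red) embryos. Points are embryos with their numbers, the long line is the group mean and the bar its SD. The coloboma points of dla and dlb all lie under the normal points, while in the receptor panels the groups mix.

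The ligand gene dla, expressed in nascent neurons, measured 261, 232, 266 and 225 CPM in normal embryos 3, 4, 6 and 7. In coloboma embryos 3, 4, 5, 6 and 7 it measured 182, 189, 201, 158 and 174 CPM. Every coloboma embryo was below every normal embryo, a separation in this direction found for 2.16% of all genes tested. The normal group averaged 246 ± 20.6 CPM (SD, n = 4) against 181 ± 16.2 CPM (SD, n = 5) in the coloboma group, which differ on the log2 scale by -0.44 ± 0.09 (SE; adjusted p = 0.106 in edgeR). The interval of that change (95%) ran from -0.65 to -0.24. A two-sided exact permutation test over embryos gave p = 0.00794, the smallest value that 4 against 5 embryos allow. This p is unadjusted and rests on the same separation of the groups. In DESeq2 the adjusted p was 0.000749, and in edgeR without coloboma embryo 5, the shallowest library, it was 0.0383, where 0.329% of all genes passed as lower. Over the 20 alternative settings the edgeR, DESeq2 or limma adjusted p of dla ran from 0.000749 to 0.321, and the log2 fold change from -0.53 to -0.40.

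Its relative dlb, found with dla in forming neurons, measured 253, 242, 263 and 218 CPM in the same order of normal embryos. The coloboma embryos measured 207, 193, 198, 163 and 176 CPM, again all below the lowest normal embryo. On the log2 scale dlb differed by -0.38 ± 0.09 (SE; adjusted p = 0.153 in edgeR, and p = 0.00794 by two-sided exact permutation), with an interval from -0.58 to -0.18. DESeq2 gave dlb an adjusted p of 0.00706. Groups that do not overlap with coloboma below normal were found for these 2 of the 10 genes, against 2.16% of all genes tested.

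For dlc, the ligand disrupted in the zebrafish somite mutant beamter, the normal embryos measured 84.5, 77.4, 107 and 104 CPM. The coloboma embryos measured 52.2, 69.9, 68.6, 77.8 and 76.6 CPM. Of the 5 coloboma embryos 4 were below all normal embryos, and coloboma embryo 6 was just above normal embryo 4. Its change was -0.43 ± 0.13 on the log2 scale (SE; adjusted p = 0.231 in edgeR, and p = 0.0159 by two-sided exact permutation). The TPM values of dlc separated the groups less, at 49.4 ± 14.3 TPM (transcript abundance scaled by length and library; SD, n = 4) and 35.5 ± 6.67 TPM (SD, n = 5; p = 0.119 by two-sided exact permutation).

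The last Delta gene, dld, which acts in both neurogenesis and the somite clock, measured 171, 151, 171 and 160 CPM in normal embryos. In coloboma embryos it measured 137, 126.2, 161, 109 and 129 CPM. Only coloboma embryo 5 reached into the normal range. The log2 fold change of dld was -0.30 ± 0.11 (SE; adjusted p = 0.297 in edgeR, and p = 0.0397 by two-sided exact permutation). Without coloboma embryo 5 the edgeR adjusted p of dld was 0.0720, the lowest of the 20 alternative settings. Over these settings the edgeR, DESeq2 or limma adjusted p of dld ran up to 0.576.

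Added up per length, the 4 Delta genes came to 347 ± 35.2 TPM (SD, n = 4) in normal and 251 ± 17.8 TPM (SD, n = 5) in coloboma embryos. The normal sums ran from 310 to 394 TPM and the coloboma sums from 229 to 274 TPM, so that they did not overlap. TPM carries no TMM factor, and in the TPM fits the median log2 change of all genes was -0.08 to -0.06, against 0.00 in the main fit. In TMM-scaled CPM the sums ran from 702 to 807 in normal and from 508 to 629 in coloboma embryos. The share of all genes whose TPM values separate in this way was not computed. The log2 fold changes of all 4 Delta genes were negative in each of the 20 alternative settings, which included 2 other scalings of the counts and the TPM values.

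**Figure D2:**
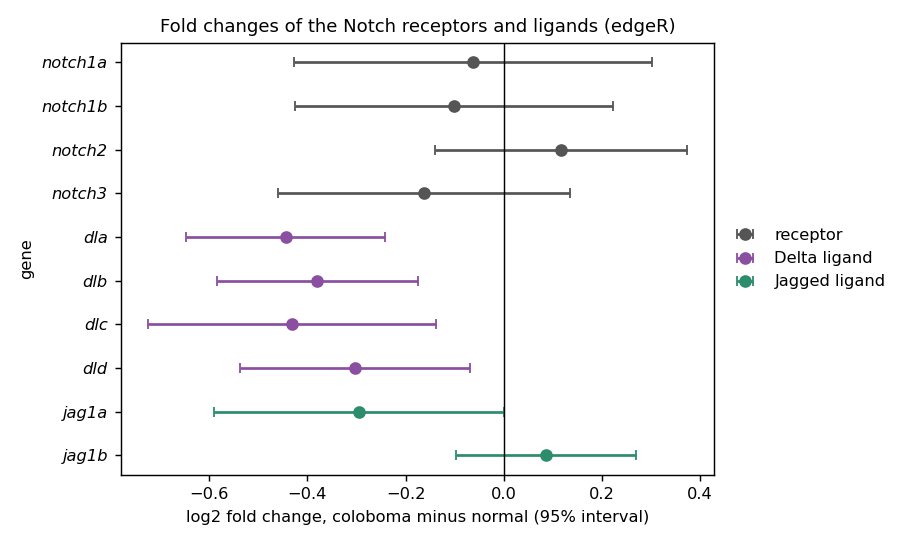
Log2 fold change (coloboma minus normal, horizontal axis) of the 10 genes in the edgeR fit of 4 normal and 5 coloboma embryos, with bars for the 95% interval of each change, not adjusted for multiple testing. The 4 Delta genes lie at -0.44 to -0.30, and the intervals of the 4 receptors and of jag1b include 0.

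Among the receptors, notch3, widely expressed in neural progenitors, measured 523, 410, 701 and 553 CPM in normal embryos 3, 4, 6 and 7. In coloboma embryos 3 to 7 it measured 519, 498, 515, 445 and 467 CPM, all inside the range of the normal embryos. The groups differed by -0.16 ± 0.14 on the log2 scale (SE; adjusted p = 0.691 in edgeR, and p = 0.373 by two-sided exact permutation), and -0.03 without normal embryo 6. The interval of the change of notch3 was -0.46 to 0.13.

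The receptor gene notch1a, active in the neural tube and in forming somites, measured 195, 137, 260 and 164 CPM in normal and 216, 185, 168, 162 and 174 CPM in coloboma embryos. The coloboma values of notch1a again lay within the normal range. The log2 fold change of -0.06 ± 0.17 (SE; adjusted p = 0.916 in edgeR, and p = 0.778 by two-sided exact permutation) had an interval from -0.43 to 0.30, and turned to 0.12 without normal embryo 6.

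Its duplicate notch1b had 131 ± 30.4 CPM in the normal group (SD, n = 4) and 122 ± 12.7 CPM in the coloboma group (SD, n = 5). The log2 fold change of notch1b was -0.10 ± 0.15 (SE; adjusted p = 0.827 in edgeR), and 0.028 without normal embryo 6. The receptor gene notch2 had 91.2 ± 14.1 CPM (SD, n = 4) and 98.9 ± 9.90 CPM (SD, n = 5), and its log2 fold change was 0.12 ± 0.12 (SE; adjusted p = 0.748 in edgeR). The intervals, -0.42 to 0.22 for notch1b and -0.14 to 0.37 for notch2, hold changes of either sign.

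The ligand gene jag1a measured 30.6, 30.9, 41.4 and 32.1 CPM in normal embryos. The coloboma embryos measured 33.5, 28.9, 21.1, 26.7 and 27.2 CPM. All but coloboma embryo 3 were below the normal embryos. The log2 fold change of jag1a was -0.30 ± 0.13 (SE; adjusted p = 0.428 in edgeR, and p = 0.0714 by two-sided exact permutation), with an unadjusted p of 0.0498.

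Its duplicate jag1b, which acts with notch2 in the pharyngeal arches of the zebrafish, measured 61.7, 70.3, 63.7 and 67.7 CPM in normal and 66.6, 72.3, 61.2, 75.0 and 74.0 CPM in coloboma embryos. These ranges overlapped, and the log2 fold change was 0.09 ± 0.08 (SE; adjusted p = 0.741 in edgeR), with an interval from -0.10 to 0.27. Of the 10 genes, jag1b and notch2 were the 2 with positive values. With library size as the only scaling the log2 value was 0.0040 for jag1b and 0.029 for notch2, while the median of all genes moved from 0.00 to -0.08. Without normal embryo 3 the log2 value of notch2 was 0.020.

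Levels of different genes were compared as TPM. The order of mean TPM over the 9 embryos was notch1a (121 ± 29.2 TPM, SD, n = 9), dlb (104 ± 19.7), notch3 (95.4 ± 20.2), dla (83.0 ± 17.9), dld (64.7 ± 11.4), dlc (41.7 ± 12.4), notch1b (23.7 ± 4.83), jag1b (14.8 ± 1.51), notch2 (14.1 ± 1.96) and jag1a (6.71 ± 1.53), and both groups had this same order. Mean levels spanned from the 95.8th percentile of all genes in the table for notch1a to the 50.6th for jag1a. Neighbours in the order were compared within embryos by a two-sided exact sign-flip permutation, adjusted over the 9 neighbour pairs, with the order itself set by the same values. Of the 9 neighbour pairs 5 differed, each in 9 of 9 embryos (adjusted exact permutation p = 0.00703), namely dla over dld, dld over dlc, dlc over notch1b, notch1b over jag1b and notch2 over jag1a. The 3 pairs among the 4 highest genes did not pass this test: notch1a over dlb had an adjusted exact permutation p of 0.110, dlb over notch3 of 0.10 and notch3 over dla of 0.0996. Nor did the pair jag1b and notch2 (adjusted exact permutation p = 0.125).

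**Figure D3:**
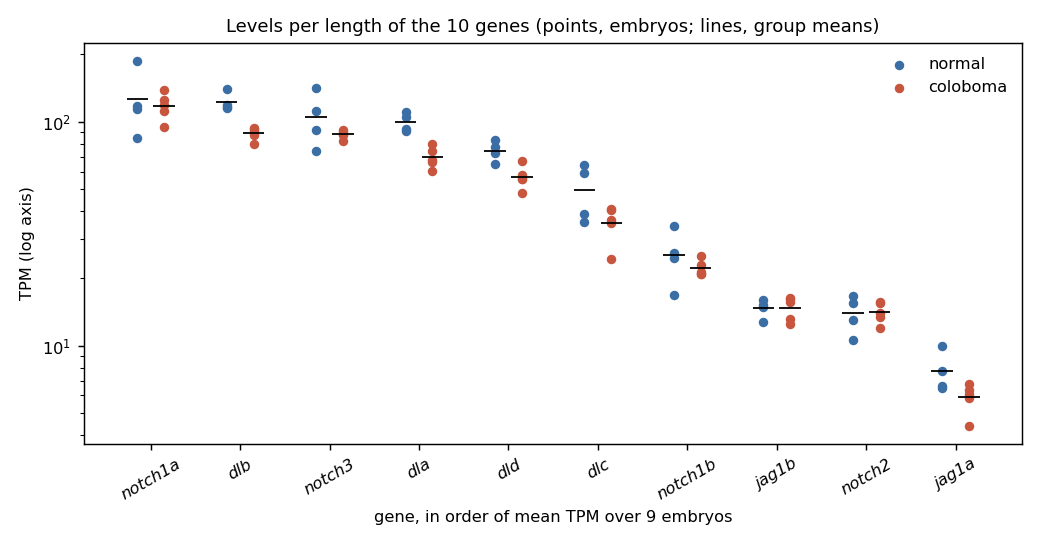
TPM of the 10 genes (log axis) in order of their mean over 9 embryos, with normal embryos in blue, coloboma embryos in red and lines for the group means. Values run from notch1a at a mean of 121 TPM to jag1a at 6.71 TPM, and the order of the group means is the same in both groups. The order depends on the length set for each gene.

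Balances between close relatives were read as log2 TPM differences within each embryo, and are given without a test. The difference notch1a minus notch1b was 2.29 ± 0.13 in the normal group (SD, n = 4) and 2.40 ± 0.20 in the coloboma group (SD, n = 5). Its size depends on the length set for each gene, as the normal means were 189 and 131 CPM. For jag1a minus jag1b the difference was -0.95 ± 0.25 (SD, n = 4) and -1.33 ± 0.22 (SD, n = 5), from -1.16 to -0.60 in normal and from -1.51 to -0.97 in coloboma embryos. For dla minus dld it was 0.43 ± 0.14 (SD, n = 4) and 0.29 ± 0.08 (SD, n = 5). The groups overlapped in all 3 balances.

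The 2 deposited measures did not move together for every gene. The ratio of count to TPM, scaled to the median gene of each embryo and to the gene's own mean, varied by 1.03 times between embryos for notch1b, notch3, dlb, dld, jag1a and jag1b, and by 1.05 times for notch2, against 1.03 times for the median gene. For notch1a it ran from 0.847 in coloboma embryo 5 to 1.102 in coloboma embryo 6, a factor of 1.30, wider than in 92.4% of the genes with enough reads. For dlc it ran from 0.908 in normal embryo 7 to 1.096 in normal embryo 4, a factor of 1.21, and for dla the factor was 1.13. In estimates that assign reads to transcripts, this ratio follows the mean length of the transcripts used for a gene. Its part in the differences between count and TPM values was not tested.

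The rest of the pathway was described from gene lists, by counts and medians. Of 83 further genes in 7 lists, none passed over all genes in edgeR or limma voom, with 17 lower and 2 higher at an unadjusted p under 0.05 in edgeR, where 4.90% of all genes were lower and 6.78% higher. DESeq2 called 3, her4.2, hes6 and lfng, all lower in coloboma embryos, where it called 2.75% of all genes in either direction and 1.0% as lower. Of 5 other ligand genes, 2 had positive and 3 negative values, with a median log2 fold change of -0.03. They were led by p by dner, a Delta-like surface protein (-0.20 ± 0.28, log2, SE), the endothelial ligand gene dll4 (0.06 ± 0.09) and the second Jagged type jag2b (-0.05 ± 0.11).

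Of 12 genes that modify ligands or receptors, 4 had positive and 8 negative values (median -0.06). The Fringe glycosyltransferase gene lfng, which tunes which ligand a receptor answers to, had 294 ± 15.5 CPM in the normal group (SD, n = 4) and 236 ± 18.2 CPM in the coloboma group (SD, n = 5). The log2 value of lfng was -0.32 ± 0.08 (SE; adjusted p = 0.166 in edgeR and 0.00825 in DESeq2). Its groups did not overlap, with coloboma below normal, as for 2.16% of all genes tested. The gene mib, for the ubiquitin ligase Mind bomb that Delta needs to signal, was at -0.41 ± 0.14 (log2, SE; adjusted p = 0.295 in edgeR). The glucosyltransferase gene poglut1, whose enzyme adds sugars to the receptor, was at 0.33 ± 0.10 (log2, SE; adjusted p = 0.223 in edgeR). The groups of poglut1 did not overlap either, with coloboma above normal (18.8 to 26.4 CPM in normal and 27.4 to 30.5 CPM in coloboma embryos). In either direction, the groups did not overlap for 944 of 21293 genes tested.

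Of 11 genes of receptor cleavage, 4 had positive and 7 negative values (median -0.07). The gamma-secretase gene ncstn was at -0.30 ± 0.18 and the convertase gene furina at 0.17 ± 0.10 (log2, SE; adjusted p = 0.575 and 0.526 in edgeR). Of 12 genes of the nuclear complex and its feedback, 4 had positive and 8 negative values (median -0.12). The feedback inhibitor genes nrarpb and nrarpa, themselves induced by Notch, were at -0.34 ± 0.11 and -0.25 ± 0.10 (log2, SE; adjusted p = 0.245 and 0.363 in edgeR). The co-repressor gene ncor1 was at 0.20 ± 0.12 (log2, SE; adjusted p = 0.581 in edgeR).

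Among 20 her and hey genes, many of them targets of Notch, 5 had positive and 15 negative values (median -0.15), and 5 were lower at an unadjusted p under 0.05, against 4.90% of all genes. The neural target her4.2 measured 102 ± 15.96 CPM in the normal group (SD, n = 4) and 72.7 ± 5.85 CPM in the coloboma group (SD, n = 5), a log2 value of -0.49 ± 0.11 (SE; adjusted p = 0.122 in edgeR and 0.00292 in DESeq2). The lowest normal embryo had 89.9 CPM of her4.2 and the highest coloboma embryo 79.99 CPM, a gap in this direction found for 2.16% of all genes tested. The related hes6 was at -0.55 ± 0.13 (log2, SE; adjusted p = 0.143 in edgeR and 0.0103 in DESeq2) and her13 at -0.27 ± 0.10 (adjusted p = 0.307 in edgeR). The her4 genes are close copies of each other, among which reads may be divided uncertainly, which was not measured here: her4.1 was at -0.07 ± 0.24, her4.3 at -0.49 ± 0.33 and her4.4 at -0.72 ± 0.43 (log2, SE), genes chosen as the other copies after their values were seen.

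The list of 14 genes of neuronal fate was made, like the others, with earlier results of these data known. All 14 had negative values (median -0.40), where 10618 of 21293 genes tested were negative. Of the 14, 7 were lower at an unadjusted p under 0.05 in edgeR, against 4.90% of all genes. None of the 14 genes passed over all genes in edgeR or DESeq2. They were led by olig2 of motor neuron progenitors, which lies on the chromosome of zic2a (-0.34 ± 0.10, log2, SE; adjusted p = 0.201 in edgeR), the proneural gene ascl1a (-0.42 ± 0.12; adjusted p = 0.210 in edgeR) and the early ear gene atoh1b (-0.75 ± 0.24; adjusted p = 0.261 in edgeR). Of 10 genes of the somite clock and tailbud, where dlc and dld also act, 7 had positive and 3 negative values (median 0.17). The clock gene her1 was near the limit of detection at 0.102 ± 0.0896 CPM in the normal group (SD, n = 4) and 0.273 ± 0.124 CPM in the coloboma group (SD, n = 5). The related her11 was also low, at 0.774 ± 0.162 CPM (SD, n = 4) and 1.21 ± 0.406 CPM (SD, n = 5). Its log2 value was 0.60 ± 0.28 and that of the ligand gene fgf8a 0.17 ± 0.10 (SE; adjusted p = 0.439 and 0.551 in edgeR). The list also holds msgn1, tbx6, tbx16 and wnt3a, named here for their low levels, with normal means from 0.312 to 1.81 CPM. The median of this list therefore rests in part on weakly detected genes.

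**Figure D4:**
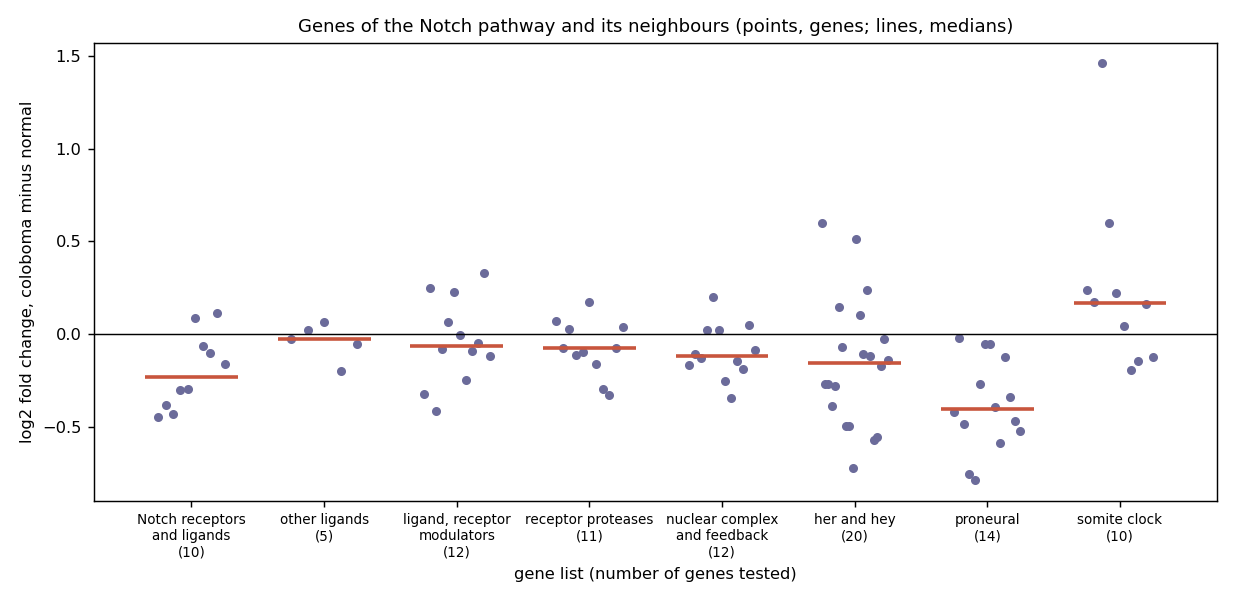
Log2 fold change (coloboma minus normal, vertical axis) of every tested gene in the list of the 10 receptors and ligands and in 7 further lists, with points for genes and lines for list medians. The medians lie between -0.12 and -0.03 in the first 4 further lists, at -0.15 for the her and hey genes, -0.40 for the proneural genes and 0.17 for the somite clock. Several somite clock genes were weakly detected.

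Beside these genes, 13 markers of neural progenitors, such as sox2, sox3 and gfap, summed to 1308 to 1587 CPM in normal and 1089 to 1379 CPM in coloboma embryos, with negative log2 values for 12 of 13 (median -0.25). The progenitor list also holds her4.2. The 10 neuron markers, such as elavl3, summed to 1125 to 1425 CPM and 928 to 1152 CPM, with 10 of 10 negative (median -0.16). The 25 skeletal muscle markers summed to 31389 to 51892 CPM and 49156 to 75109 CPM, with 25 of 25 positive (median 0.61). In percent of the normal mean, coloboma embryos averaged 76.4% ± 5.84 (SD, n = 5) for the Delta genes, 86.0% ± 7.5 for the progenitor markers and 84.1% ± 6.55 for the neuron markers. Their part in the lower Delta values was not tested.

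The 12 endothelial markers summed to 223 to 247 CPM in normal and 227 to 290 CPM in coloboma embryos, with 9 of 12 positive (median 0.16). The 5 hair cell markers of the ear summed to 240 to 398 CPM and 285 to 453 CPM, with 3 of 5 positive (median 0.08). This sum was mostly pvalb9, named here for its share, at 286 CPM of a mean sum of 326 CPM in the normal group. The 13 lens genes had a median of 0.31 with 11 of 13 positive, the sum of coloboma embryo 3 lying far below all others. Without coloboma embryo 3 the Delta genes kept log2 values of -0.45 (dla), -0.42 (dlb), -0.35 (dlc) and -0.31 (dld).

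**Figure D5:**
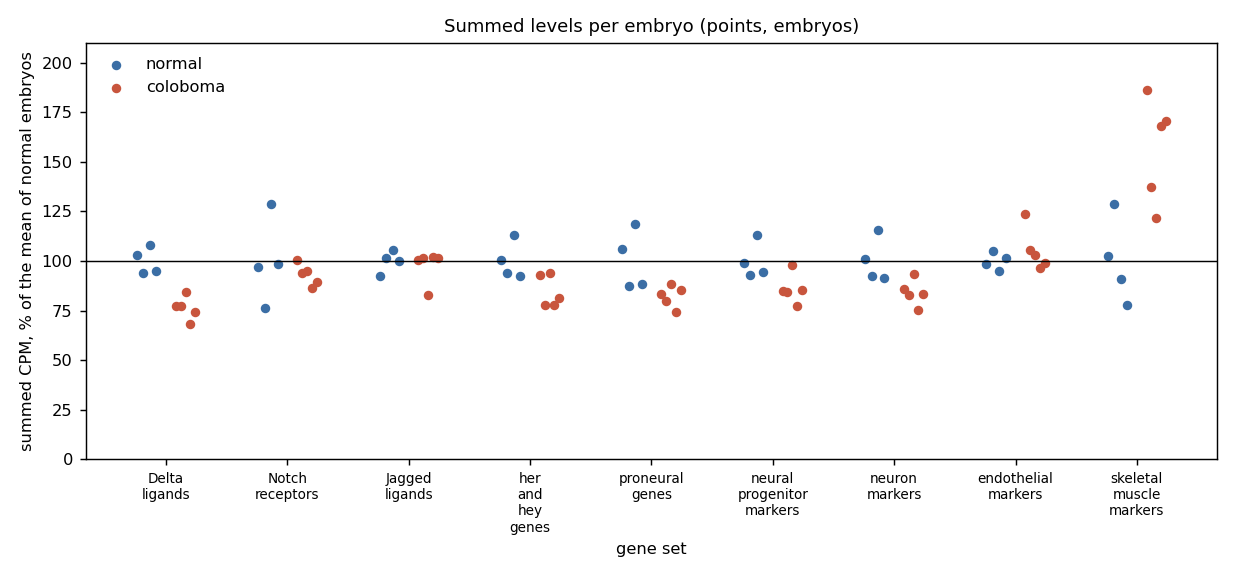
Summed CPM of each gene set in percent of its mean over the normal embryos (vertical axis), for 4 normal (blue) and 5 coloboma (red) embryos. The coloboma embryos lie at 68.1 to 84.3% for the 4 Delta genes, 77.6 to 98.2% for the neural progenitor markers and 122 to 186% for the skeletal muscle markers.

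For each of the 10 genes, the gene whose log2 CPM followed it most closely over the 9 embryos was looked up among 10211 genes with proper symbols and a mean of at least 5 CPM. The correlations are descriptions over 9 libraries that share scaling and depth, the partner being the best of all. For dla the closest was fzr1, an activator of the cell-cycle ubiquitin ligase (Pearson r = 0.98, Spearman rho = 0.98), for dlb ncanb, for neurocan (0.97 and 0.97), for dlc mapre1b (0.99 and 0.98) and for dld lrrn1 (0.98 and 0.98). For notch1a it was thsd7a (0.99 and 0.98), for notch1b cdh2, for N-cadherin of neural tissue (0.98 and 0.98), for notch2 atxn2 (0.96 and 0.93) and for notch3 npas3b (0.97 and 0.88). For jag1a it was vsnl1b (0.96 and 0.87) and for jag1b gnai3 (0.97 and 0.95). Without the 2 embryos farthest from the median, r lay between 0.83 (jag1a) and 0.98 (notch1a).

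Among the 10 genes themselves the closest pair was dla and dlb (Pearson r = 0.96), then notch1b with notch3 (0.92) and dla with dld (0.91), pairs chosen after their values were seen. For dlc and dla the value was 0.60. These values too are descriptions over 9 embryos that fall into groups with unequal means.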

How the data were processed

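Per the labels' protocols, embryo RNA went through an Illumina TruSeq preparation. Bowtie 1.1.1, RSEM 1.2.18, CASAVA 1.8.2 and build Zv9 appear in the submitters' processing notes. What each did, and with which annotation, is not given in the sources used here. Estimated counts, as deposited, are whole numbers, taken as rounded expected counts. The TPM values, made by the authors and deposited beside them, are scaled by length and library. All value columns were mapped to samples by name.

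Counts were fitted with edgeR 4.0.16 (R 4.3.3; filterByExpr with minimum count 10, TMM, quasi-likelihood F test, no covariate, Benjamini-Hochberg over all genes), coloboma minus normal, with SE from the fold change and F. DESeq2 1.42.0 and limma 3.58.1 served as alternatives. Only the edgeR fit was tested on simulated counts with known changes, all larger than the fold changes of the 10 genes. The share of changes that it had to recover was lowered after the first outcome was seen. Single values were compared by two-sided exact permutation. Replicate pairs differed beyond sampling noise (chi-square per degree of freedom at least 26.2). In the normal group this value was 30.7 for embryos 3 and 4, 39.2 for embryos 6 and 7, and 67.5 to 75.7 for the other pairs. In the coloboma group it ran from 26.2 for embryos 6 and 7 to 71.6 for embryos 3 and 5. A cause of these unequal distances was not tested. The genes and lists were chosen with earlier results of these data known. Named genes were the 10 genes, the 3 with the smallest p of each pathway list and the closest correlate of each gene; others are marked, and 1 gene that this rule names is not reported here. Of 203 list entries 174 were matched, 169 by symbol, 3 by alias and 2 by synonym. The labels name no batch, so none was tested. Depth per embryo is given by the total counts. The embryos being separate animals, the p-values of the group comparisons rest on spread between animals. In edgeR, DESeq2 and limma the estimates of that spread borrow from other genes. The sign-flip p-values of the TPM order rest on differences between genes within embryos.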

Additional observations from a re-analysis of the deposited data

Results flagged for a closer look

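In the normal group, embryo 6 stood apart for jag1a, at 41.4 CPM, with a gap to the next embryo that took up 0.858 of the whole range of the group. The other 3 normal embryos lay between 30.6 and 32.1 CPM. Of 20 combinations of gene and group examined in this way, 1 was singled out, which is about the number that chance gives (1 in 20). Without normal embryo 6 the log2 fold change of jag1a was -0.19 (edgeR adjusted p = 0.751), against -0.30 with it.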

How the results depend on the processing

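The number of the 10 genes past the threshold was 0 in the edgeR fit, 2 with DESeq2 and 0 to 1 when single embryos were left out, the 1 being dla without coloboma embryo 5. Of the 83 pathway genes DESeq2 called 3, and edgeR 0. Over all genes 44 passed, against 578 with DESeq2 (367 higher, 211 lower), 17 with the embryo number as a replicate block, and 21 to 235 when single embryos were left out. The largest shifts came without coloboma embryo 5 (235), normal embryo 3 (21), coloboma embryo 4 (21), normal embryo 6 (25) and normal embryo 7 (27); the cause was not tested. Without coloboma embryos 3 and 5 together, a choice made after seeing the data, 0 of the 10 genes passed. When single embryos were left out, the log2 fold change ran from -0.19 to 0.12 for notch1a and from -0.24 to 0.028 for notch1b, turning its sign in both without normal embryo 6. No other of the 10 genes changed sign in the 20 alternatives. Library size alone gave a split of 12 higher and 33 lower genes, against 17 and 27. Embryo numbers are shared between the groups, but the correlation of deviations of same-numbered embryos ran from -0.16 to 0.12 and 0 of 8 embryos correlated best with its own number, so the numbers were not taken as pairs. The number of neighbour pairs that differed in TPM was 5 of 9, and 5 to 7 with single embryos left out (7 without normal embryo 4 and 6 without coloboma embryo 6). The paralog balances moved by less than the spread between embryos when any 1 was left out, an alternative added after seeing the data. The lowest count of any of the 10 genes in an embryo was 428, for jag1a in coloboma embryo 5, the shallowest library.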

Other observations

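Normal embryos differed from each other more in the receptor genes than coloboma embryos did. The coefficient of variation of CPM was 28.0% for notch1a, 23.3% for notch1b, 15.5% for notch2 and 21.9% for notch3 over 4 normal embryos. Over 5 coloboma embryos it was 11.9%, 10.4%, 10.01% and 6.52%. Normal embryo 6 had the highest level of the normal group in 9 of the 10 genes, all but jag1b, and normal embryo 4 the lowest in 5 (notch1a, notch1b, notch3, dlc and dld). The summed CPM of the neural progenitor markers was likewise highest in normal embryo 6 (1587 CPM) and lowest in normal embryo 4 (1308 CPM). In the coloboma group, embryo 6 had the lowest level in 6 of the 10 genes (notch1a, notch1b, notch3, dla, dlb and dld) and the lowest progenitor sum (1089 CPM). The difference in spread was not tested.

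Among endothelial genes, whose cells use Notch through dll4, the receptor gene kdr measured 8.30 ± 0.724 CPM in the normal group (SD, n = 4) and 11.3 ± 0.610 CPM in the coloboma group (SD, n = 5). Its log2 value was 0.45 ± 0.09 (SE; adjusted p = 0.108 in edgeR and 0.00252 in DESeq2). The paralog kdrl was at 0.02 ± 0.11 (adjusted p = 0.954 in edgeR). These 2 genes were picked with their values known. Of the 12 endothelial markers, 9 had positive and 3 negative values. DESeq2 called 1 of them, kdr, where it called 2.75% of all genes in either direction. The ligand gene dll4 was at 0.06 ± 0.09 (log2, SE), and a link of kdr to Notch was not tested.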
